A study of Mus musculus with 8 samples.

Results

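The 31 genes described here encode the enzymes of cholesterol synthesis, the machinery that controls SREBP, a sterol carrier and the fatty acid enzymes under SREBP control. They were taken by symbol from a list of the sterol and SREBP pathway, and are 31 of the 45706 gene rows in the count table. The rule uses no measured value, but the members were chosen with earlier results of these data known. By role they fall into 18 sterol synthesis genes, 1 sterol transport gene (Stard4), 5 SREBP control genes and 7 fatty acid genes. No gene of lipoprotein uptake is among them. All 31 had at least 10 counts in at least 2 libraries and entered the tests, which covered 15049 genes.

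RNA bound to chromatin, which is rich in transcripts still being made, was sequenced from primary mouse embryonic fibroblasts (MEFs) of C57BL/6 background. The cells were wild type (WT) or labelled crel-/-rela-/- (KO here), a genotype that lacks 2 subunits of the transcription factor NF-kB. Cells of both genotypes were starved overnight in 0.5% bovine calf serum and then received TNF, a cytokine that activates NF-kB, at 10 ng/ml. RNA was taken before TNF (0 min) and at 15, 45 and 60 min, with 1 library for each genotype and time, 8 in all. The untreated libraries are those at 0 min, so TNF cannot be told apart from the time spent after handling or in low serum. The sources do not give the part removed from the alleles, and nothing says that libraries came from separate cultures or animals.

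SREBPs are transcription factors made as precursors in the membrane of the endoplasmic reticulum, where SCAP escorts them and INSIG proteins hold the complex back while sterols are plentiful. When sterols fall, the complex moves to the Golgi, proteases release the active domain, and it enters the nucleus to switch on its targets. SREBP2, from Srebf2, acts mainly on sterol genes, and SREBP1, from Srebf1, mainly on fatty acid genes. Insig1 is itself a target and closes a feedback loop.

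The promoters of 4 members are printed to show where motifs known from sterol genes were found and where they were not. SREBP binds the sterol regulatory element and acts with NF-Y, which binds the CCAAT box. The sequences are the 250 bases before the RefSeq start site, 5′ to 3′ on the gene's strand, in build GRCm38.p6 (mm10). Capitals mark matches to the sterol regulatory element TCACNCCAC and to CCAAT or its complement ATTGG. Hmgcs1 (chr13:119690101-119690350, plus strand) and Mvd (chr8:122443423-122443672, minus strand) stand for sterol synthesis. Srebf2 (chr15:82147019-82147268, plus strand) stands for SREBP control and Fads2 (chr19:10101504-10101753, minus strand) for the fatty acid genes.
Hmgcs1: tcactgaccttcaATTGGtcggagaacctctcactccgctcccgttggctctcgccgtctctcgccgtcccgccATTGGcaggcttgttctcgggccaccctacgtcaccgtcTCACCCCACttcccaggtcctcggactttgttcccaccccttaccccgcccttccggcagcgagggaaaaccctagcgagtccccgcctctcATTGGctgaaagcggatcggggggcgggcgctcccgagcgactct
Mvd: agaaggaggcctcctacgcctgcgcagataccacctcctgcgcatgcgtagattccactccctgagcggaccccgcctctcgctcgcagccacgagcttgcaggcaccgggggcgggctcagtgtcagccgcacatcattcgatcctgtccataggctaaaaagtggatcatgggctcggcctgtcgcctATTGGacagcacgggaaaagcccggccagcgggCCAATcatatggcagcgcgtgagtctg
Srebf2: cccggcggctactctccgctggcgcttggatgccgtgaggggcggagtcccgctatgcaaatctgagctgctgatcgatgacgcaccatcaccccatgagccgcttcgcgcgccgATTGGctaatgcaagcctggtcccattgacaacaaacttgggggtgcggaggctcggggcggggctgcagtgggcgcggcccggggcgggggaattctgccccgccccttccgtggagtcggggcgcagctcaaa
Fads2: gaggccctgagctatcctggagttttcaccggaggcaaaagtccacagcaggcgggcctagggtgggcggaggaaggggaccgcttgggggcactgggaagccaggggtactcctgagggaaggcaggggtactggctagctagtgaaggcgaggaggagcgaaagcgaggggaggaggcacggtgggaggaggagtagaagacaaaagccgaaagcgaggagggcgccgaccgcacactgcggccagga

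Hmgcs1, the synthase that makes the mevalonate precursor HMG-CoA, had the sterol regulatory element at bases -137 to -129 from its start site and CCAAT boxes around it. Mvd had CCAAT boxes and no exact match to the sterol element. Srebf2 had 1 CCAAT box and no exact match to the sterol element, and Fads2 had no exact match to either motif. RefSeq promoters were matched by symbol for 24 of the 31 genes. Motifs were searched on both strands from 250 bases before to 50 bases after each start site, and a gene counted if any of its promoters held a match. CCAAT was found in 20 of the 24 genes against 41.1% of the 27025 genes in the table. By role it was found in 14 of 15 sterol synthesis genes and in 2 of 4 fatty acid genes. The GC box GGGCGG was found in 21 of 24, against 38.2% of genes. TCACNCCAC was found in Hmgcs1 and in 1.44% of genes. The E-box CACGTG was found in 5 of 24, against 8.09% of genes. The NF-kB motif GGNNTTTCC was found in 3 of 24 (Hmgcs1, Mvd and Srebf1), against 6.62% of genes. These motifs do not overlap in the printed windows, and a match is a description of the letters, not a bound site. Only the exact strings given were searched. A gene without a match may hold a variant of the element, or one outside the window, so no match does not mean no element.

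Library totals ran from 12359817 to 15607331 counts, of which 58.9% to 70.6% lay in 3 rows (Gm26917, Gm42418 and Malat1). The genes named in the genotype were read in every library, Rela with 324 to 704 counts in WT and 241 to 324 in KO, and Rel with 151 to 805 in WT and 308 to 633 in KO. Since the deleted part is not given, these counts do not check the labels. Fibroblast markers were high in every library, from 9030 to 13313 CPM (counts scaled to a common library total) summed over 10 genes. Summed over 10 macrophage markers, WT libraries had 66.8 to 95.5 CPM and KO libraries 6.28 to 8.21 CPM, with Adgre1 and Ptprc at 0 to 2 counts in KO. Cd68 differed from these, with 67 to 93 counts in KO and 75 to 131 in WT. It made up most of the KO sum, 5.33 of 6.28 CPM at 45 min. The KO library at 0 min stood apart: 7 cartilage markers summed to 441 CPM there, 24.6 to 57.2 CPM in the later KO libraries and 12.3 to 18.3 CPM in WT. Of 8 adipocyte markers 2 were at 0 in every library, Adipoq had at most 1 count, and the list summed to 1.81 to 3.46 CPM in WT and 5.21 to 6.54 CPM in KO. Plin4 made up most of the KO sum, with 3.83 to 5.12 CPM. Epithelial markers (8 genes) summed to 1.07 to 1.29 CPM in WT, 14.3 CPM in KO at 0 min and 2.47 to 4.37 CPM in the later KO libraries. Endothelial markers (6 genes) summed to 3.69 to 5.30 CPM in WT and 9.09 to 14.7 CPM in KO. Kdr (3.17 to 7.95 CPM) and Tek (4.31 to 6.28 CPM) made up most of that KO sum. In bulk samples fewer cells of a type and less RNA per cell cannot be told apart.

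Of the 18 sterol synthesis genes 12 were called higher at 45 and 60 min than at 0 min over both genotypes. Of the 7 fatty acid genes 1 was, beside 7.68% of all tested genes. Between genotypes 12 sterol synthesis genes and 6 fatty acid genes were called higher in KO, beside 6.81% of all tested genes. CPM here are counts scaled by TMM, a factor per library that sets the typical gene equal across libraries. Summed over the 18 sterol synthesis genes, WT libraries had 198, 246, 333 and 344 CPM at 0, 15, 45 and 60 min. The KO libraries had 276, 351, 530 and 510 CPM. Every later library lay above the 0 min library of its genotype, and every KO library above the WT library of its time. The 7 fatty acid genes summed to 366, 343, 363 and 416 CPM in WT and to 487, 486, 614 and 637 CPM in KO. The ratio of the sterol sum to the fatty acid sum was 0.540, 0.716, 0.917 and 0.827 in WT and 0.567, 0.721, 0.862 and 0.801 in KO. At each time the ratio differed little between the genotypes, although both sums were higher in KO.

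**Figure D1:**
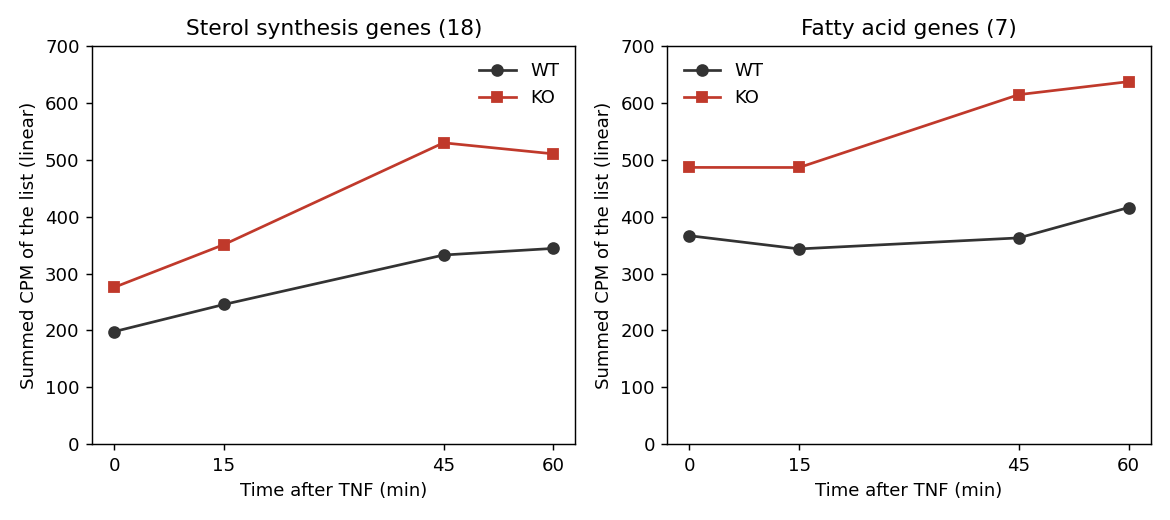
Summed CPM (linear axis from 0) of the 18 sterol synthesis genes (left) and the 7 fatty acid genes (right) against minutes after TNF, 1 library per point, WT as circles and KO as squares. The sterol sum went from 198 to 344 CPM in WT and from 276 to 510 CPM in KO between 0 and 60 min, and the fatty acid sum was at 366 and 343 CPM in WT and at 487 and 486 CPM in KO at 0 and 15 min.

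Levels of different genes are compared per kilobase of exon, as the mean of the 8 libraries. Scd2, a stearoyl-CoA desaturase, was highest at 25.8 CPM per kb, followed by Fasn, the fatty acid synthase, at 19.5 CPM per kb. Hmgcs1 was the highest sterol gene at 15.7 CPM per kb. The lowest were Ebp, a sterol isomerase, at 0.845 CPM per kb, and Idi1, the isopentenyl diphosphate isomerase, at 0.917 CPM per kb. Idi1 had 17 counts in the WT library at 0 min. Scd1 and Scd2 are near copies of each other, so how reads were split between them is uncertain.

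The late response was tested as the mean of 45 and 60 min against 0 min in a fit with genotype and time as terms. That fit takes the other genotype as the replicate of a time and assumes the same time course in both. Of the 31 genes 15 were called higher and none lower with the edgeR quasi-likelihood test at a Benjamini-Hochberg adjusted p of 0.05. Among all 15049 tested genes 7.68% were called higher and 6.16% lower. The 15 were 12 sterol synthesis genes, Srebf2, Insig1 and Fasn. The median log2 fold change was 0.71 over the sterol synthesis genes, 0.11 over the fatty acid genes and -0.01 over all tested genes.

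The early mevalonate steps held both strong and weak responses. Hmgcs1 had 30.1, 37.0, 56.4 and 58.3 CPM in WT at 0, 15, 45 and 60 min, and 39.1, 43.8, 74.2 and 67.4 CPM in KO. Both late libraries lay above both earlier ones in each genotype, and its log2 fold change of late against 0 min was 0.89 ± 0.10 (SE; adjusted p = 0.000741). Mvd, the mevalonate diphosphate decarboxylase, had 4.07, 4.39, 8.88 and 11.6 CPM in WT and 4.37, 4.15, 12.6 and 10.5 CPM in KO. Its level at 15 min was close to that at 0 min, and the late libraries were higher in both genotypes by 1.36 ± 0.18 (log2; adjusted p = 0.00168). Idi1 showed another course, with 1.13, 2.66, 2.72 and 2.82 CPM in WT and 2.21, 5.12, 6.12 and 2.93 CPM in KO. Its highest KO libraries were those at 15 and 45 min, and late against 0 min it rose by 1.10 ± 0.28 (log2; adjusted p = 0.0297). The kinases between these steps, Mvk and Pmvk, were not called (log2 fold changes 0.41 ± 0.18 and 0.06 ± 0.21). Acat2, the thiolase before Hmgcs1, was not called at 0.70 ± 0.24 (adjusted p = 0.0766).

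The enzymes that build squalene and close the sterol ring were called together. Fdps, the farnesyl diphosphate synthase, had 7.80, 9.86, 13.4 and 14.9 CPM in WT and 11.7, 18.02, 28.5 and 29.7 CPM in KO. Sqle, the squalene epoxidase, had 17.1, 27.2, 37.8 and 36.7 CPM in WT and 31.8, 41.4, 57.6 and 59.2 CPM in KO. Lss, the lanosterol synthase, had 23.3, 26.6, 39.7 and 41.0 CPM in WT and 32.6, 40.2, 70.3 and 79.2 CPM in KO. For all 3 the late libraries lay above the early ones within each genotype, without overlap. Late against 0 min, Fdps rose by 1.10 ± 0.14, Sqle by 0.99 ± 0.11 and Lss by 1.00 ± 0.12 on the log2 scale (adjusted p = 0.00136, 0.000704 and 0.00125). Fdft1, the squalene synthase, rose by 0.70 ± 0.12 (adjusted p = 0.00632). It shares 26.8% of its exon length with Ctsb on the opposite strand, which had 779 counts a library on average against 238 for Fdft1. With the strand setting not given, reads of the pair cannot be told apart.

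Of the enzymes that turn lanosterol into cholesterol, Msmo1 and Cyp51 had the smallest adjusted p. Msmo1, a sterol methyl oxidase (mm10 chromosome 8, 64718139 to 64733792, minus strand), had 19.1, 28.8, 49.9 and 46.3 CPM in WT and 37.3, 48.0, 81.1 and 73.7 CPM in KO. In each genotype the 15 min library was above 0 min and both late libraries were above it, and the late libraries were higher than 0 min by 1.18 ± 0.11 (log2; adjusted p = 0.000261). Cyp51, the lanosterol demethylase, had 27.5, 34.4, 44.3 and 46.3 CPM in WT and 39.3, 50.7, 73.9 and 58.5 CPM in KO. Its late libraries were also above both early ones in each genotype, and it rose by 0.73 ± 0.11 (adjusted p = 0.00307). Nsdhl, a sterol dehydrogenase, rose by 0.73 ± 0.18, Sc5d, a sterol desaturase, by 0.57 ± 0.14 and Dhcr7, a late sterol reductase, by 0.65 ± 0.19 (adjusted p = 0.0245, 0.0268 and 0.0479). The reductases Tm7sf2 (0.42 ± 0.18) and Hsd17b7 (0.37 ± 0.15) and Ebp (-0.05 ± 0.31) were not called. Tm7sf2 shares 15.3% of its exon length with Vps51 on the same strand, and Ebp had the lowest level per kilobase.

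Among the SREBP control genes, the transcripts of Srebf2 and Insig1 rose and those of Srebf1, Scap and Insig2 were not called. Srebf2 had 38.7, 47.5, 65.0 and 76.9 CPM in WT and 52.3, 58.1, 76.9 and 86.3 CPM in KO. It was higher at each later time in both genotypes, by 0.75 ± 0.10 late against 0 min (log2; adjusted p = 0.00161). Insig1 had 13.1, 19.7, 25.1 and 29.6 CPM in WT and 26.3, 41.0, 49.4 and 39.1 CPM in KO. In KO its value at 60 min was below that at 15 min, and over both genotypes it rose by 0.90 ± 0.15 (adjusted p = 0.00498). Srebf1 had 34.3, 46.5, 44.0 and 45.5 CPM in WT and 46.7, 46.4, 42.8 and 39.5 CPM in KO, so the genotypes ran in opposite directions. Its log2 fold change was 0.09 ± 0.13. Scap was at -0.05 ± 0.11 and Insig2, the other INSIG gene, at 0.24 ± 0.13. Stard4, which carries cholesterol between membranes, was at 0.33 ± 0.12 (adjusted p = 0.0895).

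In the fatty acid group Fasn alone was called in this comparison. Fasn had 138, 159, 160 and 169 CPM in WT and 183, 197, 260 and 270 CPM in KO. The late libraries lay above the early ones in each genotype, narrowly in WT, and the log2 fold change was 0.40 ± 0.11 (adjusted p = 0.0344). Elovl6, a fatty acid elongase, was at -0.38 ± 0.15 (adjusted p = 0.124) and Scd1 at -0.25 ± 0.12. Acly, which makes cytosolic acetyl-CoA, was at 0.23 ± 0.12, Scd2 at 0.10 ± 0.12, and the desaturases Fads1 and Fads2 at 0.11 ± 0.12 and 0.26 ± 0.14.

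Both late libraries lay above both early ones in each genotype for 13 of the 31 genes (13.6% of all genes), 11 of them in sterol synthesis, and below for none (13.6%). Leaving out the KO library at 0 min, the one with the high cartilage markers, left 9 of the 15 calls of late against 0 min. The 6 lost were Idi1, Fdft1, Nsdhl, Sc5d, Dhcr7 and Fasn. The share of all genes called higher was then 4.46%, the sterol median 0.54 and the fatty acid median -0.01. With any other single library left out, the sterol median was 0.65 to 0.85 and the fatty acid median 0.06 to 0.21. Scaled by total counts in place of TMM, the median of all genes moved to -0.22 and the sterol median to 0.50. Then 11 of the 31 genes were called higher, Elovl6 and Scd1 were called lower, and the share of all calls that were higher went from 55.5% to 19%.

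**Figure D2:**
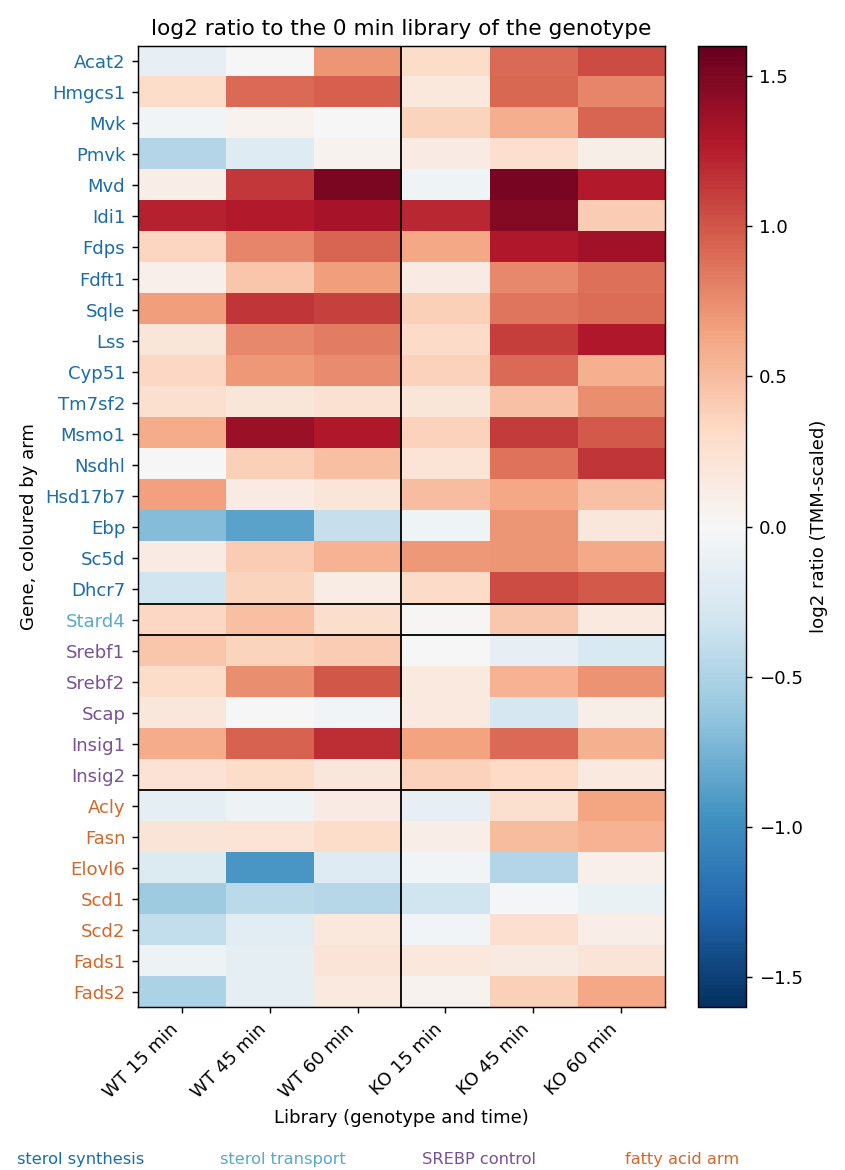
Log2 ratio of each of the 31 genes (rows, coloured by role) in the 6 libraries at 15, 45 and 60 min (columns) to the 0 min library of the same genotype, after TMM scaling, with red higher and blue lower. All 18 sterol synthesis genes are above 0 in KO at 45 and at 60 min, Mvd, Idi1, Fdps and Msmo1 are among the deepest red, and Elovl6 in WT at 45 min and Ebp in WT are blue.

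With 15 min as the baseline, 9 of the 31 genes were called higher at the late times and none lower (edgeR; 5.87% of all genes were called higher and 5.04% lower). Of these, 8 were sterol synthesis genes. Mvd had the largest log2 fold change, 1.34 ± 0.18 (adjusted p = 0.00282), as large as against 0 min. Lss (0.75 ± 0.12), Msmo1 (0.71 ± 0.10), Hmgcs1 (0.66 ± 0.10) and Fdps (0.61 ± 0.13) followed. Fdft1 (0.58 ± 0.12), Sqle (0.47 ± 0.10) and Cyp51 (0.39 ± 0.11) were also higher, as was Srebf2 (0.53 ± 0.10; adjusted p = 0.00943). Idi1 (-0.10 ± 0.25), Hsd17b7 (-0.22 ± 0.14), Sc5d (0.15 ± 0.14) and Insig1 (0.28 ± 0.14) were not called from this baseline. The median was 0.53 over the sterol synthesis genes, 0.24 over the fatty acid genes and 0.00 over all genes. The KO library at 0 min is not part of this baseline, but it is in the fit and enters the genotype term and the spread. Without that library the sterol median was 0.53 and the fatty acid median 0.24. Leaving out either 15 min library left none of the 9 called, and leaving out the KO library at 45 min left 5. Over all genes the share called higher also fell, to 0.321% without WT at 15 min, 1.29% without KO at 15 min and 3.07% without KO at 45 min. The sterol median was then 0.56, 0.48 and 0.46. With total counts 14 were called, and the share of all calls that were higher went from 53.8% to 82.1%.

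**Figure D3:**
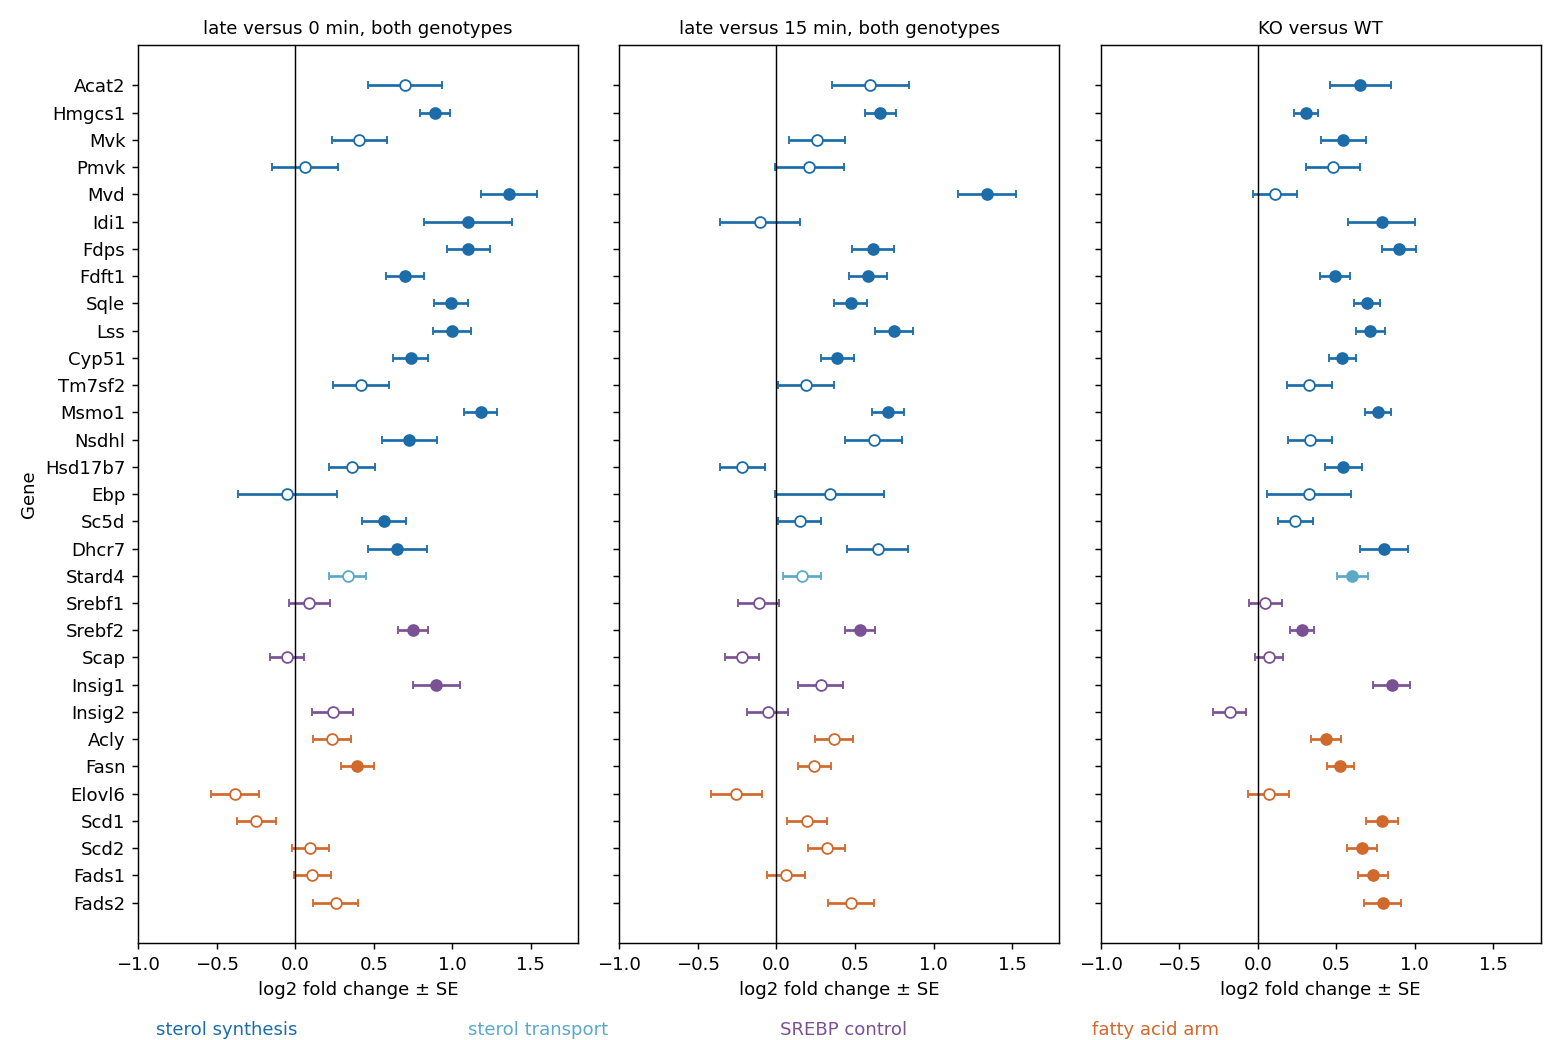
Log2 fold change ± SE of each of the 31 genes in 3 comparisons from the edgeR fit with genotype and time, filled where the adjusted p was at most 0.05. Filled points are 15 for late against 0 min, 9 for late against 15 min and 21 for KO against WT, and the fatty acid genes are filled mainly in the last.

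At 15 min against 0 min none of the 31 genes was called by edgeR in either direction, where 0.126% of all genes were called higher and 0.0133% lower. DESeq2 called none either. At an unadjusted p under 0.05, edgeR had 8 higher (Idi1, Fdps, Sqle, Cyp51, Msmo1, Hsd17b7, Sc5d and Insig1) and 1 lower (Scd1), where 4.2% of all genes were higher at that level. Idi1 was at 1.20 ± 0.32, Insig1 at 0.62 ± 0.17 and Hsd17b7 at 0.58 ± 0.17 on the log2 scale, and Scd1 at -0.44 ± 0.14. The median was 0.23 over the sterol synthesis genes and -0.13 over the fatty acid genes. Both rest on single libraries: the sterol median was 0.10 without KO at 0 min and 0.14 without WT at 15 min. The fatty acid median was -0.27 without KO at 0 min and 0.01 without WT at 0 min. With no filter on low counts, 4 genes were called higher (Idi1, Sqle, Hsd17b7 and Insig1). With total counts Scd1 was called lower and 8 of the 31 values were above 0, against 24 with TMM, while the median of all genes moved to -0.34 and the share of all calls that were higher went from 90.5% to 12%.

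Single libraries were also compared by the ratio of their counts, with intervals that cover counting error and say nothing of the spread between cultures. A gene was counted if it differed at least 1.5-fold, its interval lay away from equality and its higher library had at least 20 counts. Of the 31 genes 5 were counted higher at 15 min than at 0 min in WT, where 3.04% of genes were. In KO 4 were, where 2.23% of genes were. Idi1 and Insig1 were in both sets. Idi1 had 37 counts at 15 min against 17 at 0 min in WT, a log2 ratio after scaling of 1.23 (95% Clopper-Pearson interval 0.37 to 2.15). In KO it had 58 against 37 counts, a ratio of 1.21 (0.59 to 1.85). Insig1 was at 0.59 (0.32 to 0.87) in WT and 0.64 (0.45 to 0.83) in KO. Sqle, Msmo1 and Hsd17b7 were past 1.5-fold in WT, and Fdps and Sc5d in KO. None was counted lower in either genotype, where 4.81% and 3.41% of genes were. Ebp was past that fold in WT, with 20 counts against 35, but its interval held equality (log2 ratio -0.70, -1.57 to 0.14).

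Within each genotype another fit with a mean for each genotype at 0 min, at 15 min and at the late times took 45 and 60 min as replicates, with 2 residual degrees of freedom. In WT 8 of the 31 genes were called higher late against 0 min (4.17% of all genes) and none lower (1.31%). They were Msmo1 (1.33 ± 0.18), Mvd (1.33 ± 0.28), Sqle (1.1196 ± 0.18), Insig1 (1.07 ± 0.22), Hmgcs1 (0.93 ± 0.18), Srebf2 (0.88 ± 0.18), Fdps (0.86 ± 0.21) and Lss (0.79 ± 0.18). In KO 6 were called higher (1.32% of all genes) and none lower (0.518%), from Mvd (1.40 ± 0.28), Fdps (1.31 ± 0.20) and Lss (1.20 ± 0.18) to Msmo1 (1.05 ± 0.18), Sqle (0.88 ± 0.17) and Hmgcs1 (0.86 ± 0.17). All 6 were among the 8 of WT. Against 15 min, Mvd (1.22 ± 0.28) and Msmo1 (0.74 ± 0.18) were called in WT (3.24% of all genes). In KO, Mvd (1.47 ± 0.29) and Lss (0.89 ± 0.18) were called (0.478% of all genes), and with total counts the share of all KO calls that were higher went from 58.1% to 74%. None was lower in either genotype (0.864% and 0.346% of all genes). With total counts, 1 gene in WT and none in KO were called late against 0 min, and the shares of all calls that were higher went from 76.1% to 52.1% and from 71.7% to 26.8%. With no filter on low counts these counts were 2 and 0, and the shares of all genes called higher fell to 0.968% and 0.0312%.

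The difference between genotypes in the late response was tested itself, and none of the 31 genes was called in either direction by edgeR or DESeq2. Of all genes edgeR called 0.492% with a higher response in WT and 0.00664% with a lower one. The response was lower in WT for 7 of 7 fatty acid and 14 of 18 sterol synthesis genes, beside 7501 of 15049 genes. For 5 of 5 SREBP control genes it was higher in WT, beside 7548 of 15049. Median differences were -0.36, -0.32 and 0.23, and 0.00 over all genes. The sterol median was 0.52 in WT and 0.87 in KO, the fatty acid median 0.01 and 0.19. All rest on 1 library per genotype at 0 min. At an unadjusted p under 0.05 Mvk was lower in WT (-0.74 ± 0.32, with 0.03 ± 0.23 in WT and 0.77 ± 0.23 in KO). Srebf1 was higher in WT at that level (0.57 ± 0.24, with 0.39 ± 0.17 in WT and -0.18 ± 0.17 in KO). The lowest difference of the 31 genes was that of Ebp, at -1.05, with 18 to 38 counts a library. The SE of a single gene's difference ran from 0.23 for Fasn to 0.67 for Idi1, so differences of that size were not detectable here. Across the 31 genes the late responses of WT and KO against 0 min had a Pearson r of 0.73 and a Spearman rho of 0.77, and against 15 min both were 0.76. Across all 15049 genes r was 0.35 and 0.39. These are correlations across genes, which are not independent replicates, and genes of higher counts are measured with less error.

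**Figure D4:**
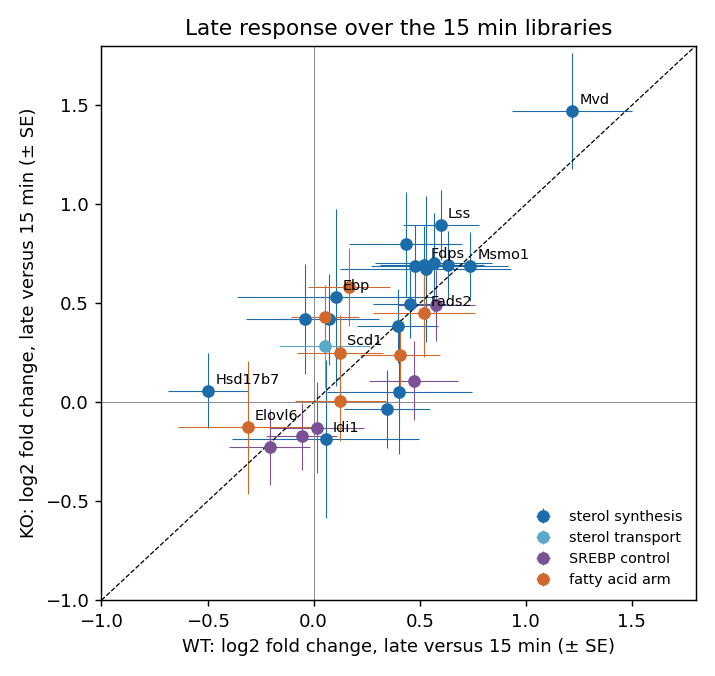
Log2 fold change of late against 15 min in KO (vertical, ± SE) against WT (horizontal, ± SE) for the 31 genes, coloured by role, with the line of equal response dashed. Mvd lies farthest out at 1.22 in WT and 1.47 in KO, most sterol synthesis genes lie near the line, and Hsd17b7 lies apart at -0.50 in WT and 0.06 in KO.

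Between the genotypes over all 4 times, 21 of the 31 genes were called higher in KO and none lower (edgeR with time as a term; 6.81% of all genes were called higher and 9.44% lower). They were 12 of 18 sterol synthesis genes, Stard4, Srebf2, Insig1 and 6 of 7 fatty acid genes, Elovl6 being the exception. The median log2 fold change was 0.54 over sterol synthesis, 0.67 over the fatty acid genes, 0.07 over SREBP control and 0.01 over all genes. KO was above WT at all 4 times for 24 of the 31 genes (18.6% of all genes) and below at all 4 for Insig2 (18.3%).

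The fatty acid desaturases were higher in KO at every time. Scd2 had 116, 87.7, 103 and 130 CPM in WT at 0, 15, 45 and 60 min, and 162, 157, 194 and 175 CPM in KO. Scd1 had 15.8, 10.7, 11.7 and 11.6 CPM in WT and 23.1, 18.5, 22.7 and 21.4 CPM in KO. Fads2 had 10.9, 7.63, 9.74 and 12.1 CPM in WT and 14.5, 15.0, 18.8 and 22.2 CPM in KO. In each case the 4 KO libraries lay above the 4 WT libraries without overlap, as they also did for Fads1, Fasn, Stard4, Mvk and Pmvk, 8 of 31 in all (5.84% of all genes). None had its 4 KO libraries below the 4 WT libraries (7.75% of all genes). The KO to WT log2 fold change was 0.67 ± 0.10 for Scd2, 0.79 ± 0.10 for Scd1, 0.80 ± 0.12 for Fads2 and 0.73 ± 0.10 for Fads1. Fasn was higher by 0.53 ± 0.08 and Acly by 0.43 ± 0.10.

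Of the sterol synthesis genes Fdps was highest in KO relative to WT, at 0.90 ± 0.11 (adjusted p = 0.000386). Dhcr7 (0.80 ± 0.15), Idi1 (0.79 ± 0.21), Msmo1 (0.77 ± 0.08), Lss (0.72 ± 0.10) and Sqle (0.70 ± 0.08) were also higher. Smaller differences were called for Acat2 (0.65 ± 0.19), Mvk, Cyp51 and Hsd17b7 (each 0.54), Fdft1 (0.49 ± 0.10) and Hmgcs1 (0.31 ± 0.08). Mvd, the gene with the largest late response, was at 0.11 ± 0.14 and was not called. Insig1 was higher by 0.85 ± 0.12, Stard4 by 0.60 ± 0.10 and Srebf2 by 0.28 ± 0.08. Insig2 (-0.18 ± 0.11), Srebf1 (0.05 ± 0.11) and Scap (0.07 ± 0.09) were not called. The WT libraries also held more macrophage marker RNA, 66.8 to 95.5 against 6.28 to 8.21 CPM. The KO libraries held more of 4 other marker lists by summed CPM (adipocyte, endothelial, epithelial and cartilage), but not of every gene in them. Pecam1, an endothelial marker, had 0.57 and 0.43 CPM in WT at 45 and 60 min against 0.32 and 0.075 CPM in KO. Col11a2, a cartilage marker, had 14.1 CPM in WT and 12.1 CPM in KO at 45 min. Calls are not counted for these lists, because genes such as Col9a1 (0 to 1 counts in WT) passed the count filter only through KO libraries. The part of such RNA in these differences was not tested. With 1 KO and 1 WT library at a time, genotype and any difference between the cultures cannot be told apart. Without the WT or the KO library at 45 min, 13 of the 21 calls were made, and 2.9% and 2.74% of all genes were called higher. With total counts 14 were made, the median of all genes moved to -0.17, and the share of all calls that were higher went from 41.9% to 14.1%.

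Pmvk, Tm7sf2, Ebp, Srebf1, Scap, Insig2 and Elovl6 were called in none of the comparisons. The share of all genes called in at least 1 comparison was not taken, so the other members are not counted here.

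Of 28 further genes around the pathway, 3 were called higher and 3 lower late against 0 min, beside 7.68% and 6.16% of all genes, so the counts say little of these lists as a whole. Over both genotypes, 2 of 14 other SREBP pathway genes were higher: Acsl3, a fatty acid activating enzyme, by 0.63 ± 0.18, and Aacs, which activates acetoacetate, by 0.46 ± 0.11. Acacb, the mitochondrial acetyl-CoA carboxylase, fell by 0.99 on the log2 scale (SE 0.24; adjusted p = 0.0253). Its CPM were 6.87, 6.48, 4.23 and 4.63 in WT and 6.76, 7.95, 2.62 and 2.33 in KO, so both late libraries were below both early ones in each genotype. Of 7 genes of LXR targets and sterol export, 1 was called higher and 1 lower. Soat1, which esterifies cholesterol for storage, rose by 0.53 ± 0.10. Abca1, which exports cholesterol from the cell, had 94.1, 90.0, 79.7 and 66.2 CPM in WT and 68.9, 77.7, 49.9 and 38.5 CPM in KO. Abca1 fell by 0.51 (SE 0.12; adjusted p = 0.0209). Nr1h2, an LXR gene, was at -0.25 ± 0.13 and was not called. Of 7 genes of the isoprenoid branch, none was called higher and Pdss2, of coenzyme Q synthesis, fell by 0.61 (SE 0.16), while Pdss1 (0.50 ± 0.19) and Ggps1 (0.20 ± 0.16) were not called.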

How the data were processed

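Ribosome-depleted stranded libraries of chromatin-associated RNA were sequenced as single-end 50 bp reads, per the labels' protocols. Whole-number counts per gene were deposited by the authors for the 8 libraries, per the file headers. The submitters' processing notes name cutadapt 1.12, STAR, featureCounts 1.5.0, DESeq2 and build mm10. For the annotation release, the strand setting and multi-mapping reads, the settings were not given in the sources used here.

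Identifiers gave a symbol to 98.77% of rows. A minimum of 10 counts in 2 or more libraries left 15049 genes, which were scaled by TMM and entered the quasi-likelihood test of edgeR 4.0.16 (R 4.3.3), Benjamini-Hochberg over all tested genes, threshold 0.05, in 2 fits: genotype plus time (3 residual degrees of freedom) and 6 cell means (2). DESeq2 1.42.0, other scalings and filters, and leaving out each library were alternatives. No 2 libraries were duplicates (chi-square per degree of freedom 7.98 to 53.4 over 28 pairs). Intervals cover only the counting error, as PCR copies are not separate molecules, and a count of 0 allows up to 3 counts. P-values measure the spread between these libraries, which may be technical.

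Tested on simulated data, the test of late against 0 min in both genotypes recovered 52.2% of 67 genes changed 1.5-fold and 98.5% of 67 changed 2-fold. For WT alone these shares were 13.4% and 74.6%. The changed genes were drawn from those with a mean of at least 50 counts, so the shares do not cover Ebp, Acat2 or Idi1. The simulated data had no other difference between genotypes or times. Their spread was that of the fit with genotype and time, also for WT alone. Genes were named if called in any comparison. Late against 0 min over both genotypes, genes at the end of their role's range were also named when not called. From the other lists, the 3 with the smallest p in that comparison were named. The members and lists were chosen with earlier results of these data known.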

Additional observations from a re-analysis of the deposited data

How the results depend on the processing

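Of 63 calls of single genes, none reversed in any alternative run and 22 were made in every one. The 8 called late against 0 min in all alternatives were Hmgcs1, Mvd, Fdps, Sqle, Lss, Cyp51, Msmo1 and Srebf2. The 13 for KO against WT were Fdps, Sqle, Lss, Cyp51, Msmo1, Dhcr7, Stard4, Insig1, Fasn, Scd1, Scd2, Fads1 and Fads2. Numbers of the 31 genes called higher, under each alternative named, were as follows, with the share of all genes called higher in brackets. For WT late against 0 min the 8 (4.17%) became 1 with total counts (2.02%) and 2 with no filter (0.968%). In KO the 6 (1.32%) became 0 (0.379%) and 0 (0.0312%). For WT late against 15 min the 2 (3.24%) became 0 with DESeq2 (1.82%), 1 with total counts (2.9%) and 0 with no filter (0.492%). In KO the 2 (0.478%) became 1 (0.405%), 1 (0.738%) and 0 (0%). The 9 over both genotypes (5.87%) became 14 with total counts (10.4%) and 14 with no filter (6.03%). At 15 min against 0 min none (0.126%) became 4 with no filter (0.535%). There 1 was called lower with total counts (1.08% of all genes lower). Late against 0 min 2 were called lower with total counts (16.6% of all genes lower). Single libraries at 15 min had 1 gene higher in each genotype with total counts or at 2-fold, and with total counts 6 lower in WT and 1 in KO. Shares of all genes were not taken for these single-library alternatives, so their counts are not a result about the members. With total counts the median of all genes at 15 min against 0 min over both genotypes was itself -0.34. Leaving out 1 library at a time gave 4 to 11 genes for KO late against 0 min, 1 to 3 for WT late against 15 min and 0 to 4 for KO. Over both genotypes it gave 0 to 12 late against 15 min, 9 to 14 late against 0 min and 13 to 19 for KO against WT. Over both genotypes the 0 came without either 15 min library, the 9 without KO at 0 min and the 13 without WT or KO at 45 min. The 11 and the 1 came without WT at 45 or 60 min, and for KO against 15 min the 0 came without KO at 60 min, 1 without KO at 45 min and the 4 without WT at 60 min. The median over sterol synthesis genes minus that over fatty acid genes ran, with 1 library left out, from 0.51 to 0.58 for WT late against 0 min and from 0.20 to 0.32 for WT late against 15 min. It ran from 0.25 to 0.37 for 15 min against 0 min and from -0.215 up to -0.0608 for KO against WT. The same difference was 0.35 in KO late against 15 min and 0.44 with at least 50 counts in 4 libraries. The share of all genes called also moved with the library left out, so the counts of members alone do not describe the members. The cause of these shifts was not tested. No paired analysis was possible because the labels give no replicate numbers, with 1 library per genotype and time. The genotype comparison already has time as a term. Low counts limit Ebp, Acat2 and Idi1.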

Other observations

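Of the 7 LXR and export genes, 1 was called higher and 3 lower in KO than in WT over all 4 times (edgeR with time as a term, adjusted over all genes), beside 6.81% and 9.44% of all genes. The genes other than Aacs, Soat1 and Abca1 in this paragraph were chosen after their values were seen. Abcg1, a sterol exporter, had 2.53, 2.09, 2.94 and 5.06 CPM in WT at 0, 15, 45 and 60 min and 1.08, 0.62, 0.72 and 0.83 CPM in KO. The groups did not overlap, and its KO to WT log2 fold change was -1.90 ± 0.27 (adjusted p = 0.00107). Nr1h3, which encodes LXR alpha, was at -1.99 ± 0.40 and at most 1.65 CPM in any library. It passed the count filter only through WT libraries (10 to 23 counts, against 2 to 5 in KO). Its call, 1 of the 3 lower, was favoured by that filter. Abca1 was at -0.53 ± 0.10, and Soat1 was higher in KO at 0.33 ± 0.08. Abcg1 and Nr1h3 are also expressed in macrophages, whose 10 markers summed to 66.8 to 95.5 CPM in WT and 6.28 to 8.21 CPM in KO. The part of such cells in these values was not tested. Among the other SREBP pathway genes Elovl5, a polyunsaturated fatty acid elongase, was higher in KO at 0.80 ± 0.10 (adjusted p = 0.000489). It had 8.10 to 9.002 CPM in WT and 13.0 to 16.4 CPM in KO. Acaca, the cytosolic acetyl-CoA carboxylase, was at 0.37 ± 0.09 and Aacs at 0.34 ± 0.09, while Rnf139, an ubiquitin ligase of the endoplasmic reticulum, was at -0.37 ± 0.10. None of the 7 isoprenoid branch genes was called between genotypes.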
